A study of Iris tectorum with 6 samples.

Results

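The phosphate genes of Iris tectorum, a rhizomatous garden iris, were followed in leaf RNA of plants that stood in swine wastewater in a glasshouse, in water that averaged 12.3 cm in height (± 0.8, n = 18). One group held the plant alone. The other held the plant together with the green microalga Dictyosphaerium sp., in the same wastewater, so all plants shared the wastewater and the flooding. The labels give 3 samples per group. The 5 libraries analysed were plant alone 2 and 3 and co-culture 1, 2 and 3, while plant alone 1 was not analysed here. The labels do not say whether samples came from separate plants or vessels, so p-values measure only the spread between these libraries. A unigene is an assembled transcript, and members were all unigenes whose best protein hit was described with a phrase of phosphate transport or phosphate starvation (phosphate transporter, SPX domain, purple acid phosphatase, phosphate starvation, PHO1, sulfoquinovosyl, monogalactosyldiacylglycerol, digalactosyldiacylglycerol or glycerophosphodiester). The rule used no measured value and found 170 of 111791 unigenes.

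Plants take up inorganic phosphate through PHT1 transporters of the plasma membrane and load it into the xylem through PHO1. When phosphate is scarce, PHR transcription factors switch on uptake, secreted acid phosphatases and lipid remodelling, in which galactolipids and sulfolipids take the place of phospholipids. SPX proteins bind inositol pyrophosphates and hold PHR factors back when phosphate is ample, and in Arabidopsis and rice the transcripts of several SPX, PHT1 and phosphatase genes are standard markers of phosphate starvation. In leaves the same genes take part in moving phosphate between cells, vacuoles, chloroplasts and mitochondria.

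By role, the 170 unigenes comprised 50 for purple acid phosphatases, 26 for PHR factors, 26 for glycerophosphodiester phosphodiesterases, 18 with an SPX domain, 15 with monogalactosyldiacylglycerol in the name, 13 for other phosphate transporters, 8 for digalactosyldiacylglycerol synthases, 7 for PHO1, 4 for PHT1, 2 for the sulfolipid enzyme SQD2 and 1 for a mitochondrial carrier. The words also drew in 4 desaturases that act on monogalactosyldiacylglycerol and 10 glycerol-3-phosphate transporters, and 18 of the purple acid phosphatases were annotated as inactive. All 170 best hits were land plant proteins, 57 of Asparagus and 71 of date or oil palm, and none was algal. The unigenes were 226 to 4639 bases long, with a median of 1473.5. Of the 170, 107 were contigs of 39 assembly clusters, whose near-identical contigs can share reads, and 63 stood alone. Expression was read in all 5 libraries for 132 of them. The mean FPKM (fragments corrected for transcript length and for sequencing depth, a level per length) was under 1 for 58 and over 10 for 36.

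The libraries held 18616931 to 22975621 expected counts. The leaf label fitted the markers, as summed chlorophyll a-b binding protein stood at 7105 and 4420 FPKM in plant alone and at 17588, 21128 and 3266 in co-culture, while root casparian strip proteins summed to 0.20 to 3.67. Rubisco small subunit summed to 870 and 388 FPKM in plant alone and to 1100.4, 2707 and 128 in co-culture, and Rubisco activase to 1283 and 604 against 1602, 7483 and 544. These leaf markers, with 45 of 52 tested chlorophyll a-b binding unigenes higher in co-culture, were high in co-culture 1 and 2 and lowest in co-culture 3, and their part in the phosphate results was not tested. Tissue pieces with fewer cells of a type and cells with less RNA of a gene cannot be told apart in whole leaves. The filter on low counts passed 69984 unigenes, 144 of them phosphate genes, and left out 26. The main test, edgeR's quasi-likelihood F test with Benjamini-Hochberg adjustment over all 69984, called 0 unigenes (background 0%), with a smallest adjusted p of 0.628. At unadjusted p under 0.05 it held 3 higher and 10 lower phosphate unigenes, 9.03% of those tested, against 7.2% of all unigenes (2.75% higher and 4.45% lower). The 3 higher ones were a purple acid phosphatase 22-like unigene (Unigene6291) and unigenes of PHOSPHATE STARVATION RESPONSE 3 (Unigene60624) and 2-like (CL7550.Contig6). All 3 passed the filter only through co-culture.

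Co-culture leaves held less phosphate-gene transcript in total, mostly in the PHT1 uptake transporters. Summed FPKM of the 170 unigenes was 2086 and 1877 in plant alone and 1587, 1336 and 1537 in co-culture. Both plant alone libraries lay above all co-culture libraries. Without the 4 PHT1 unigenes the sums were 1384 and 1300.3 against 1204, 1162 and 1280.5, close together and just without overlap. As a share of each library's summed FPKM, these other genes held 0.160% and 0.141% in plant alone and 0.146%, 0.138% and 0.149% in co-culture, so on that scale the groups overlapped. All 170 together held 0.241% and 0.203% against 0.193%, 0.159% and 0.179%, without overlap. The typical phosphate gene differed little. Of the 144 tested, 64 (44.4%) were higher and 80 lower in co-culture, where 50.1% of all unigenes were higher, and the median log2 fold change was -0.11 against 0.00 for all. In each library, the median distance of the tested members from their own plant alone mean was 0.13 and -0.13 (log2) in plant alone and -0.01, -0.11 and -0.24 in co-culture. That median lay within the spread between the plant alone libraries in co-culture 1 and 2 and outside it in co-culture 3.

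**Figure D1:**
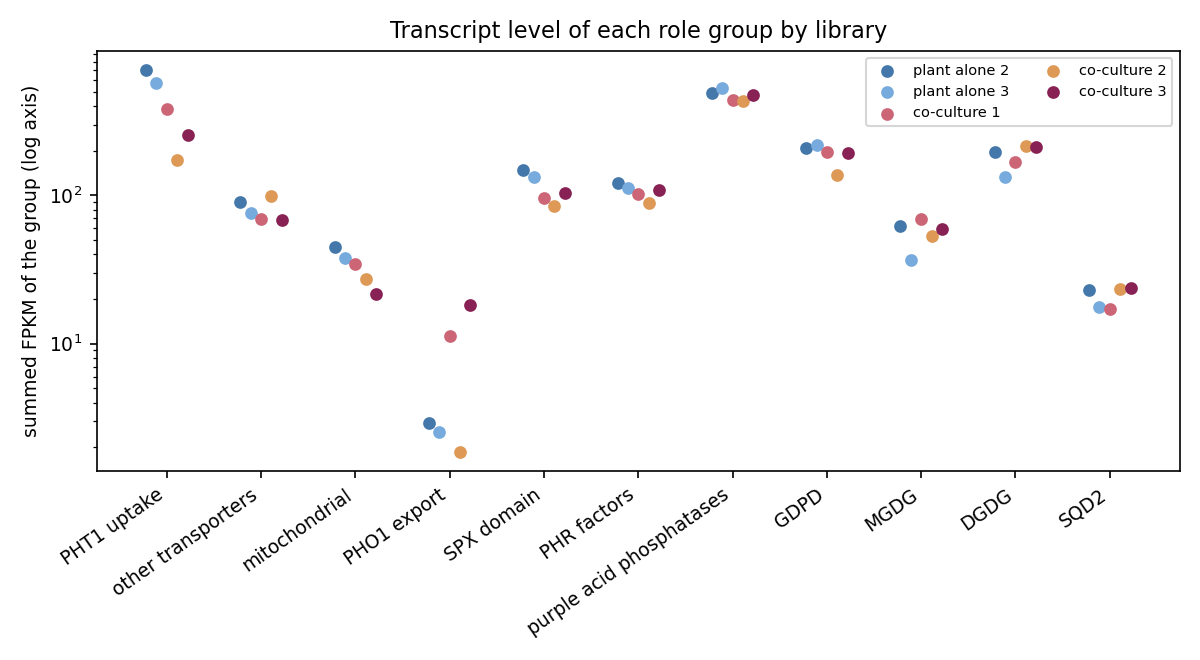
Summed FPKM of each role group (log axis), 1 point per library, in blue for plant alone and in red, orange and purple for co-culture. PHT1 stood at 703 and 577 in plant alone and at 383, 174 and 257 in co-culture, the SPX group was also lower in all 3 co-culture libraries, and PHO1 was high in co-culture 1 and 3 only.

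PHT1 carriers bring phosphate into the cell together with protons. The highest phosphate gene of these leaves was a PHT1 cluster annotated as inorganic phosphate transporter 1-4-like (CL9461), whose contig 1 averaged 302 FPKM. Its reads summed over contigs, scaled by TMM and library size (CPM), were 1433 and 1316 in plant alone and 767, 321 and 388 in co-culture. Every co-culture library lay below both plant alone libraries, and co-culture 1 was the highest of the 3. The means were 1374 ± 83.3 (SD, n = 2) and 492 ± 241 (SD, n = 3), 2.79-fold lower, with a log2 fold change of -1.48 ± 0.48 (SE). The edgeR test gave an unadjusted p of 0.0236 and an adjusted p of 0.514, and DESeq2 an adjusted p of 0.124, so the difference did not pass.

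The contigs of this cluster went opposite ways. Contig 1 held 1433 and 1302 CPM in plant alone and 748, 264 and 39.3 in co-culture (log2 fold change -1.97 ± 1.11, edgeR adjusted p 0.664). Contig 2 held 8.05 and 26.1 CPM in plant alone and 20.2, 51.6 and 329 in co-culture (log2 fold change 2.97 ± 1.43, edgeR adjusted p 0.628). Contig 1 was below plant alone in every co-culture library, whereas contig 2 overlapped the plant alone range in co-culture 1 and was far above it in co-culture 3. With a library left out, the log2 fold change of contig 1 ran from -3.17 (without co-culture 1) to -1.43 (without co-culture 3), and that of contig 2 from 1.08 (without co-culture 3) to 4.11 (without plant alone 3). As a share of the cluster's counts, contig 1 held 99.4% and 98.0% in plant alone and 97.4%, 82.1% and 10.1% in co-culture, where its 95% Wilson interval in co-culture 3 was 9.52% to 10.7%. Contig 2 held 84.7% there (84.0% to 85.4%). These intervals cover counting error only. The turnover between contigs thus lay mostly in 1 library, while the cluster sum was low in all 3.

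**Figure D2:**
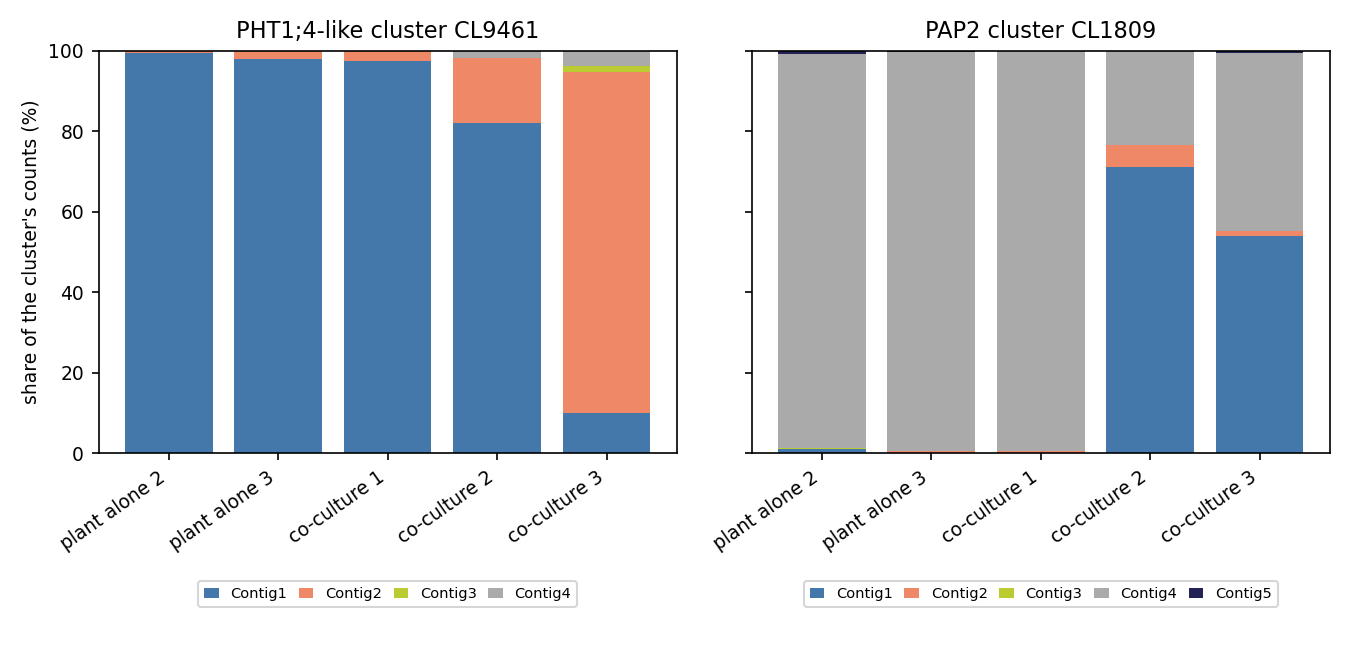
Share of each contig in its cluster's counts (%, stacked bars from 0 to 100) in the 5 libraries, for the PHT1 cluster CL9461 and the purple acid phosphatase 2 cluster CL1809. Contig 1 of CL9461 gave way to contig 2 in co-culture 3, and contig 4 of CL1809 gave way to contig 1 in co-culture 2 and 3.

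A contig 3 of the same cluster was read only in co-culture 3, at 4.95 CPM, and did not pass the filter. The second PHT1 cluster, also annotated as 1-4-like (CL9550), was steadier. Its contig 2 stood at 206 and 144 CPM in plant alone and at 151, 134 and 120.4 in co-culture, so the groups overlapped (log2 fold change -0.37 ± 0.31, edgeR adjusted p 0.766). Per length, it averaged 74.8 FPKM, below contig 1 of CL9461 in plant alone (104 and 67.1 against 595 and 499 FPKM) and above it in co-culture 3 (69.7 against 18.7 FPKM).

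Among the other carriers, the inorganic phosphate transporter 2-1 brings phosphate into chloroplasts. Its contig CL12442.Contig1 stood at 50.8 and 29.2 CPM in plant alone and at 54.3, 111 and 14.3 in co-culture. Co-culture held both the highest and the lowest library, in the same order as the summed chlorophyll a-b binding proteins for co-culture 2, 1 and 3. The log2 fold change of 0.58 ± 0.86 (edgeR adjusted p 0.880) turned to -0.21 without co-culture 2. The mitochondrial phosphate carrier, which feeds phosphate to ATP synthesis (Unigene1121), stood at 37.9 and 35.1 CPM in plant alone and at 30.1, 26.7 and 15.999 in co-culture. All 3 co-culture libraries were below plant alone (log2 fold change -0.59 ± 0.36, edgeR adjusted p 0.681), and without co-culture 3 the value was -0.36.

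Glycerol-3-phosphate transporters exchange a phosphorylated glycerol for phosphate in bacteria, and some of the plant genes respond to phosphate starvation in Arabidopsis. Of the 9 tested, 7 were lower and 2 higher. Unigene56966 stood at 4.65 and 4.87 CPM in plant alone and at 1.96, 1.43 and 2.23 in co-culture, 2.54-fold lower with no overlap (log2 fold change -1.34 ± 0.47, edgeR unadjusted p 0.0350, adjusted p 0.628, DESeq2 adjusted p 0.133). The most abundant of them, CL15740.Contig1, was flat at 64.0, 70.0, 61.0, 65.5 and 62.3 CPM over the same order of libraries. The cluster CL8056, chosen after its values were seen, summed to 117 and 106 CPM in plant alone and 57.4, 74.6 and 63.7 in co-culture. These groups were also apart (log2 fold change -0.78 ± 0.24, edgeR unadjusted p 0.0190, adjusted p 0.508). The sum holds 6 contigs, 2 of them with a member phrase, and each of those 2 had a log2 fold change of -0.78.

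PHO1 exports phosphate from cells into the xylem and was scarcely transcribed in these leaves, with 0.262 to 2.26 FPKM per unigene on average. Of 5 tested unigenes 4 were higher, with a median log2 fold change of 1.84, but the co-culture libraries were split. Among the 4, Unigene15661 and Unigene38825 passed the low-count filter only through co-culture 1 and 3, so their direction follows from the filter. CL12812.Contig1, a PHO1 homolog 1, stood at 1.15 and 0.860 CPM in plant alone and at 4.32, 0.148 and 6.39 in co-culture. Co-culture 1 and 3 were above plant alone and co-culture 2 below it (log2 fold change 1.84 ± 1.43, edgeR adjusted p 0.750). The PHO1-3 unigene Unigene38825, chosen after its values were seen, had the same split at 0.105, 0.172, 1.25, 0.0989 and 2.68 CPM. Without co-culture 2, the lowest co-culture library for both, DESeq2 called both as higher (adjusted p 0.00225 and 0.0109). That fit was chosen after seeing the data and drops the only co-culture library below plant alone. Its calls therefore do not show a higher level in co-culture. Without co-culture 1 only 3 PHO1 unigenes were tested, and their median was 0.06. The second named one, Unigene48220 (PHO1-3-like), was 0.732 and 0.803 CPM in plant alone and 1.78, 0.742 and 0.825 in co-culture, where co-culture 1 was far above plant alone, co-culture 3 just above it and co-culture 2 inside its range.

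The SPX group was lower in co-culture more evenly than any other role with at least 5 tested unigenes. Of 15 tested, 13 were lower and 2 higher (median log2 fold change -0.54), and 6 of the 15 (40.0%) lay below plant alone in every co-culture library, where 17.2% of all unigenes did. Summed over contigs, all 6 SPX clusters and single unigenes were lower, by log2 fold changes of -0.88 to -0.23. Of these 6 sums, 3 lay below plant alone in every co-culture library, against 18.2% of all sums. With any single library left out, 12 or 13 of the 15 or 16 tested were lower and the median ranged from -0.66 to -0.39. Summed FPKM of the group was 148 and 133 in plant alone and 95.9, 84.6 and 105 in co-culture, without overlap.

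Within the group, soluble SPX proteins are the sensors that bind PHR factors, and SPX proteins of the vacuolar membrane carry phosphate across it. The soluble SPX1-like contig CL7085.Contig2 stood at 28.6 and 38.2 CPM in plant alone and at 13.2, 12.8 and 10.35 in co-culture. The co-culture libraries lay close together and far below plant alone, at 12.1 ± 1.54 (SD, n = 3) against 33.4 ± 6.78 (SD, n = 2), 2.76-fold lower. The log2 fold change was -1.46 ± 0.30, with an unadjusted edgeR p of 0.00402 and an adjusted p of 0.628. DESeq2, the alternative test, called it lower at an adjusted p of 0.00916, and the call was lost without co-culture 1 (adjusted p 0.192). Its sister contig CL7085.Contig1 was 14.1 and 22.4 CPM in plant alone and 9.13, 19.04 and 19.3 in co-culture, overlapping. The cluster sum was 42.5 and 60.0 CPM against 22.3, 31.8 and 29.6, still without overlap, with a log2 fold change of -0.88 ± 0.29 (edgeR adjusted p 0.516, DESeq2 adjusted p 0.303).

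The other soluble members were a second SPX1-like gene, SPX4 and SPX5. None of the 6 soluble unigenes was higher with all libraries, while 2 were without plant alone 2. In the fits without plant alone 3 and without co-culture 1, 1 was higher in each. Unigene46784 (SPX1-like), chosen after its values were seen, was 12.1 and 20.5 CPM in plant alone and 9.09, 11.5 and 8.91 in co-culture, just without overlap. The vacuolar membrane type was led by CL6202.Contig10 with 61.1 and 80.8 CPM in plant alone and 48.5, 46.8 and 77.4 in co-culture. Co-culture 3 was inside the plant alone range and both others below it (log2 fold change -0.30 ± 0.35, edgeR adjusted p 0.840). Summed over its contigs, the cluster was 106 and 99.6 CPM against 64.4, 63.1 and 88.1, with no overlap (log2 fold change -0.52 ± 0.26, edgeR adjusted p 0.555).

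The PHR factors, the transcriptional regulators that SPX proteins bind, gave 11 higher and 13 lower among 24 tested unigenes (median log2 fold change -0.07). Summed over contigs, 4 of 12 were higher and 8 lower (median -0.17). Unigene60627 (PHOSPHATE STARVATION RESPONSE 3) stood at 39.1 and 75.5 CPM in plant alone and at 51.5, 40.2 and 25.9 in co-culture. Unigene8038 (PHOSPHATE STARVATION RESPONSE 2-like) stood at 92.1 and 49.5 CPM in plant alone and at 41.0, 76.1 and 30.0 in co-culture. Both overlapped, with log2 fold changes of -0.55 ± 0.45 and -0.53 ± 0.52 (edgeR adjusted p 0.764 and 0.805). The cluster CL7550, also PHOSPHATE STARVATION RESPONSE 2-like and chosen after its values were seen, was the flattest of the larger clusters at 55.0, 64.1, 53.9, 57.7 and 58.5 CPM, with a log2 fold change of -0.07 ± 0.22, although its contigs ranged from -1.07 to 3.36.

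**Figure D3:**
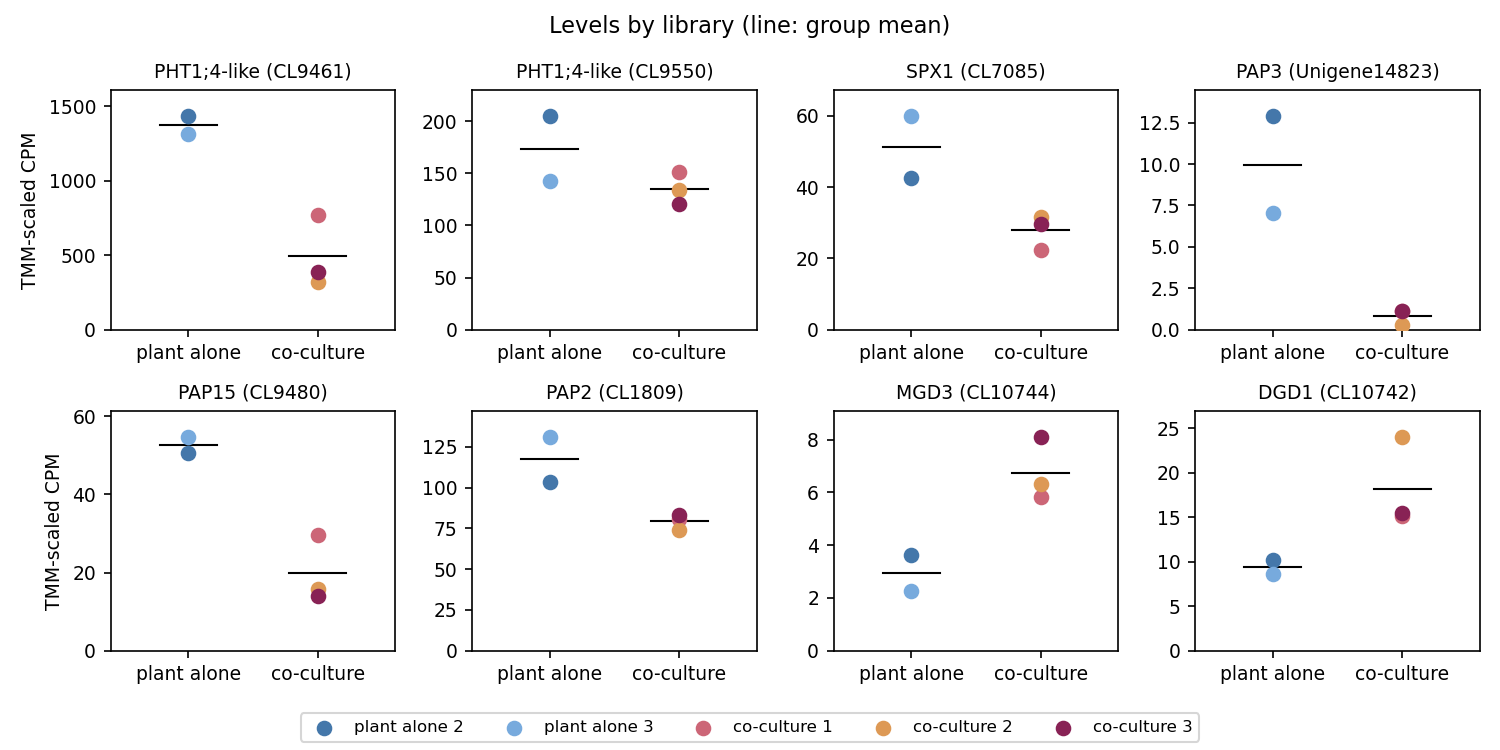
TMM-scaled CPM (contigs of a cluster summed, axes from 0) of 8 clusters or unigenes, 1 point per library, with a line at each group's mean. The groups did not overlap for PHT1 CL9461, SPX1, purple acid phosphatases 3, 15 and 2, MGD3 CL10744 and DGD1 CL10742, and overlapped for PHT1 CL9550.

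Purple acid phosphatases release phosphate from organic esters in the cell wall, the vacuole or the surroundings, and several are secreted when phosphate is scarce. Of 44 tested unigenes 20 were higher and 24 lower, and the median log2 fold change of -0.11 turned to 0.22 without plant alone 3. Summed over contigs, 10 of 27 were higher and 17 lower (median -0.28). At unadjusted p under 0.05 there were 1 higher and 6 lower unigenes, 15.9% of the 44 against 7.2% of all, and 1 higher and 4 lower sums. Of the 44, 14 (31.8%) lay below plant alone in every co-culture library and 3 (6.82%) above, against 17.2% and 12.8% of all unigenes. The spread among them was wide, and the 2 most abundant were level. CL8810.Contig3 (phosphatase 3-like) was 65.8 and 38.1 CPM in plant alone and 42.2, 64.9 and 45.2 in co-culture, and Unigene57682 (probable inactive phosphatase 29) was 69.3 and 119.9 against 98.6, 73.3 and 87.4. Both overlapped, with edgeR log2 fold changes of -0.03 and -0.13.

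The clearest differences were in 2 low-expressed unigenes of purple acid phosphatase 3. Unigene14823 stood at 13.0 and 7.11 CPM in plant alone and at 1.11, 0.297 and 1.11 in co-culture. Each co-culture library was far below both plant alone libraries, with means of 10.04 ± 4.14 (SD, n = 2) and 0.841 ± 0.472 (SD, n = 3), 11.8-fold lower. The log2 fold change was -3.56 ± 0.74, the unadjusted edgeR p 0.00435 and the adjusted p 0.628, while DESeq2 called it lower at 0.00188. Unigene14825 followed the same pattern at 3.92 and 1.38 CPM against 0.223, 0.0494 and 0.165 (log2 fold change -4.12 ± 0.90, edgeR adjusted p 0.628, DESeq2 adjusted p 0.0129). Unigene14825 passed the low-count filter only through plant alone. Both DESeq2 calls were lost without plant alone 2 (adjusted p 0.0600 and 0.187). A short unigene of purple acid phosphatase 17 (Unigene14824, 389 bases), chosen after its values were seen, was read at 0.575 and 0.860 CPM in plant alone and in no co-culture library. It was at least 16.01-fold lower against a floor of 3 counts over the co-culture group, with no adjusted p from DESeq2. Its passing the low-count filter rested on plant alone only.

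The purple acid phosphatase 15-like contig CL9480.Contig5 stood at 21.4 and 32.6 CPM in plant alone and at 11.6, 7.07 and 4.41 in co-culture, 3.50-fold lower without overlap (log2 fold change -1.81 ± 0.50, edgeR adjusted p 0.628, DESeq2 adjusted p 0.117). Its cluster sum, 50.7 and 54.7 CPM against 29.7, 15.9 and 13.9, was lower in the same way (log2 fold change -1.41 ± 0.39, edgeR adjusted p 0.508). In the opposite direction, Unigene6291 (phosphatase 22-like) stood at 0.261 and 0 CPM in plant alone and at 0.624, 4.10 and 6.43 in co-culture. Its level was near the detection limit in plant alone and in co-culture 1 and clear in co-culture 2 and 3 (log2 fold change 4.75 ± 1.74, edgeR adjusted p 0.628, DESeq2 adjusted p 0.0820). Unigene6291 passed the low-count filter only through co-culture. The DESeq2 fit of cluster sums, in which this unigene stands alone, gave 0.0467.

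The purple acid phosphatase 2 cluster CL1809, chosen after its values were seen, exchanged its contigs between libraries. Contig 4 held 102 and 131 CPM in plant alone and 80.3, 17.4 and 37.0 in co-culture, and contig 1 held 1.05 and 0 in plant alone and 0, 52.7 and 45.0 in co-culture. Contig 1 made up 1.00% and 0% of the cluster's counts in plant alone and 0%, 71.1% and 54.0% in co-culture, so co-culture 1 resembled plant alone. A count of 0 of 2305 or of 1815 allows a share of up to 0.130% or 0.165% (3 counts of the total). The sum of the cluster moved far less than its contigs, from 104 and 131 CPM to 80.8, 73.9 and 83.1 (log2 fold change -0.56 ± 0.24, edgeR adjusted p 0.533). Over all 28 phosphate clusters with at least 2 tested contigs, 15 (53.6%) held contigs of opposite direction, against 61.3% of all 11828 such clusters.

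Glycerophosphodiester phosphodiesterases split the glycerophosphodiesters left by phospholipid breakdown into glycerol-3-phosphate and an alcohol. Of 19 tested, 7 were higher and 12 lower, none of them called, and the median log2 fold change was -0.41. The 9 annotated as GDPDL gave 4 higher and 5 lower (median -0.09). The other 10 gave 3 higher and 7 lower (median -0.63). The most abundant, CL11717.Contig1 (GDPDL2, annotated with a protein kinase domain), was 214 and 351 CPM in plant alone and 250, 186 and 202 in co-culture, overlapping. CL3140.Contig2 (GDPD6-like) was 45.5 and 74.4 CPM in plant alone and 41.5, 70.3 and 55.3 in co-culture, also overlapping. The chloroplastic GDPD1-like contig CL15900.Contig1, chosen after its values were seen, stood at 13.2 and 17.1 CPM against 10.8, 5.44 and 7.50, without overlap (log2 fold change -0.94 ± 0.42, edgeR adjusted p 0.628).

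Among the galactolipid genes more unigenes were higher than lower, while the most abundant synthase contigs, CL6177.Contig1 and CL6242.Contig2, overlapped between the groups. Monogalactosyldiacylglycerol synthase (MGD) and digalactosyldiacylglycerol synthase (DGD) build the main lipids of chloroplast membranes, and MGD3 is a type that starvation induces in Arabidopsis. Of 7 tested DGD unigenes 5 were higher and 2 lower (median log2 fold change 0.28). With contigs summed all 5 DGD clusters and single unigenes were higher, by log2 fold changes of 0.25 to 0.95. The 0.25 is that of CL6242, whose sum holds 6 contigs, 3 of them with a member phrase. Those 3 contigs ran from -0.12 to 0.22. Of 13 tested unigenes with monogalactosyldiacylglycerol in the name, 10 were higher and 3 lower (median 0.30), among them all 4 tested desaturases (median 0.55), which alter the lipid after its synthesis, and 6 of 9 synthases (median 0.10). Without co-culture 2 the synthases were 4 higher and 4 lower (median 0.00249). Neither edgeR nor DESeq2 called any of these at an adjusted p under 0.05 with all 5 libraries.

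The MGD3 contig CL10744.Contig3 stood at 3.66 and 1.55 CPM in plant alone and at 5.84, 5.79 and 6.68 in co-culture. All co-culture libraries were above plant alone and close to each other, at 6.10 ± 0.503 (SD, n = 3) against 2.60 ± 1.49 (SD, n = 2). The log2 fold change was 1.23 ± 0.55 (edgeR adjusted p 0.628, DESeq2 adjusted p 0.309), and it moved with the plant alone library left out, to 1.96 without plant alone 2 and to 0.76 without plant alone 3. DESeq2 called it in 1 of the 5 fits with a library left out, that without plant alone 2 (adjusted p 0.00477). The single unigenes annotated as MGD3 overlapped between the groups and went both ways. Unigene50872 and Unigene36825 were lower (log2 fold changes -1.05 and -0.76), and Unigene50866 and Unigene50867 were higher (1.17 and 0.31). The main leaf synthase, CL6177.Contig1, was 37.8 and 33.5 CPM in plant alone and 40.5, 43.8 and 30.2 in co-culture, with overlap and a log2 fold change of 0.10 ± 0.29. The desaturase contig CL12542.Contig2 was 12.9 and 4.53 CPM in plant alone and 17.9, 7.81 and 15.2 in co-culture, overlapping.

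A pair of short DGD1 fragments did not overlap between the groups. CL10742.Contig1 stood at 10.1 and 8.31 CPM in plant alone and at 14.7, 23.98 and 14.8 in co-culture, 1.93-fold higher (log2 fold change 0.95 ± 0.38, edgeR adjusted p 0.628). Unigene34457 stood at 6.43 and 7.86 CPM in plant alone and at 10.1, 15.9 and 12.6 in co-culture, 1.80-fold higher (log2 fold change 0.85 ± 0.37, edgeR adjusted p 0.628). The full-length DGD1 contig CL6242.Contig2, far more abundant per length at 98.4 FPKM, was 241 and 145 CPM against 153, 214 and 165 and overlapped, with a log2 fold change of -0.12 ± 0.36. SQD2, which makes the sulfolipid, was level, as CL5539.Contig1 and Contig2 had log2 fold changes of 0.50 ± 0.67 and -0.16 ± 0.29 and the cluster sum 0.06 ± 0.28.

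**Figure D4:**
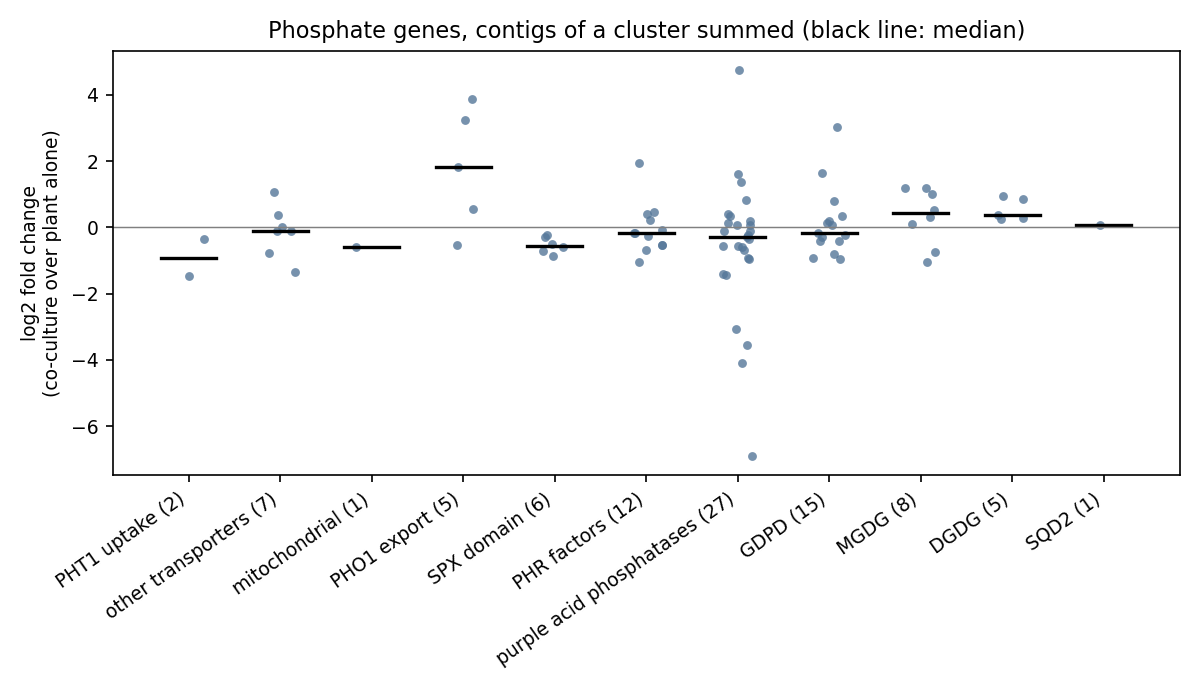
Log2 fold change of co-culture over plant alone (edgeR) for the 89 tested phosphate clusters and single unigenes, grouped by role with the number in each, with a black line at the median. All 6 SPX points lie below 0 and all 5 DGD points above it, and the lowest phosphatase point is Unigene14824, whose fitted value rests on 0 counts in co-culture and is no bound. The lowest DGD point, CL6242, sums contigs with and without a member phrase.

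Counted with contigs summed, 89 phosphate clusters and single unigenes were tested, 40 higher and 49 lower in co-culture (median log2 fold change -0.12, against -0.01 for all). At unadjusted p under 0.05 the edgeR fit of these sums held 5 higher and 8 lower, 14.6% of them, against 9.4% of all 44464 sums (3.06% higher and 6.34% lower). The 5 higher ones were Unigene6291, Unigene60624, the MGD3 cluster CL10744, the DGD1 cluster CL10742 and the GDPDL3-like Unigene26390. Of these, Unigene6291, Unigene60624 and Unigene26390 passed the low-count filter only through co-culture. None passed the adjusted threshold (background 0%, smallest adjusted p among them 0.508). Of the 89, 7 lay above plant alone in every co-culture library and 21 below, against 12.9% and 18.2% of all sums. DESeq2 called 3 of the 89, both purple acid phosphatase 3 unigenes lower and Unigene6291 higher, where it called 1.97% of all. Over single unigenes DESeq2 called 3 lower and 0 higher among the phosphate genes, against 1.01% and 0.916% of all unigenes (1.93% together). With groups of 2 and 3 libraries an exact permutation test cannot go below p = 0.1.

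Other genes of the phosphate response outside the member phrases numbered 143 unigenes, of which 121 were tested, 67 higher and 54 lower (median log2 fold change 0.08). At unadjusted p under 0.05 there were 2 higher and 3 lower, 4.13% of those tested, a smaller share than the 7.2% of all unigenes. PHO2, the ubiquitin-conjugating enzyme that removes PHT1 and PHO1 proteins in Arabidopsis, gave 1 of the higher ones (CL6017.Contig1). Its cluster CL6017 summed to 26.5 and 8.52 CPM in plant alone and to 68.7, 40.1 and 68.5 in co-culture, 3.38-fold higher and without overlap. The log2 fold change was 1.76 ± 0.57, with an edgeR adjusted p of 0.515 and a DESeq2 adjusted p of 0.116. The other PHO2 entries overlapped between the groups. CL1838 stood at 26.3 and 41.8 CPM in plant alone and at 32.3, 32.7 and 25.1 in co-culture (log2 fold change -0.18). Unigene19288 had a log2 fold change of 0.86.

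The other higher unigene was a contig annotated as SEC12-like protein 1, another name of PHF1, which lets PHT1 proteins leave the endoplasmic reticulum. CL8673.Contig4 stood at 0.157 and 0.115 CPM in plant alone and at 1.20, 1.68 and 1.73 in co-culture, and DESeq2 called it higher (adjusted p 0.0138). This contig passed the low-count filter only through co-culture. For the whole cluster the log2 fold change was 0.12, and the groups overlapped. Among the 3 lower unigenes, a contig of inorganic pyrophosphatase 2 (CL2020.Contig1) stood at 1.46 and 1.15 CPM in plant alone and at 0 in co-culture. That was at least 29.1-fold lower against the floor of 3 counts over the group, called by DESeq2 (adjusted p 0.0371). The contig passed the low-count filter only through plant alone. For the whole cluster the log2 fold change was -0.80, and the groups overlapped. The remaining lower unigenes were contigs of the myb factor PHL8 (CL5689.Contig1) and of the chloroplastic anion transporter 2 (CL8923.Contig1).

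Anion transporters of the PHT4 family, which carry phosphate across inner membranes, were higher in 7 of 9 sums and for 10 of 14 tested unigenes. The cluster CL8923 went against them, at 48.0 and 23.5 CPM in plant alone and 8.81, 9.98 and 16.9 in co-culture, without overlap (log2 fold change -1.59 ± 0.45, edgeR adjusted p 0.508). A non-specific phospholipase C, which strips the head group from phospholipids (CL11535), was 3.54 and 1.36 CPM against 15.3, 27.7 and 4.15. It was higher in every co-culture library, though only slightly in co-culture 3 (log2 fold change 2.68 ± 0.94, edgeR adjusted p 0.520). The family as a whole did not move this way, with 4 of 9 sums higher and 5 lower (median log2 fold change -0.04). Its far more abundant CL5522 and CL11275 overlapped between the groups, with log2 fold changes of -0.42 and -0.04. The PHL factors, relatives of PHR, were lower in 10 of 11 sums and for 12 of 17 tested unigenes. The SUMO ligase SIZ1, which modifies PHR1 in Arabidopsis, was higher for 8 of 9 tested unigenes and in 5 of 6 sums, 4 of the sums lying above plant alone in every co-culture library and 1 below (12.9% and 18.2% of all sums). Phospholipase D zeta, another lipid-remodelling enzyme, was higher in 5 of 5 sums, with 2 of the 5 above plant alone in every co-culture library, against the same 12.9% of all sums. All these genes were singled out after their values were seen.

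**Figure D5:**
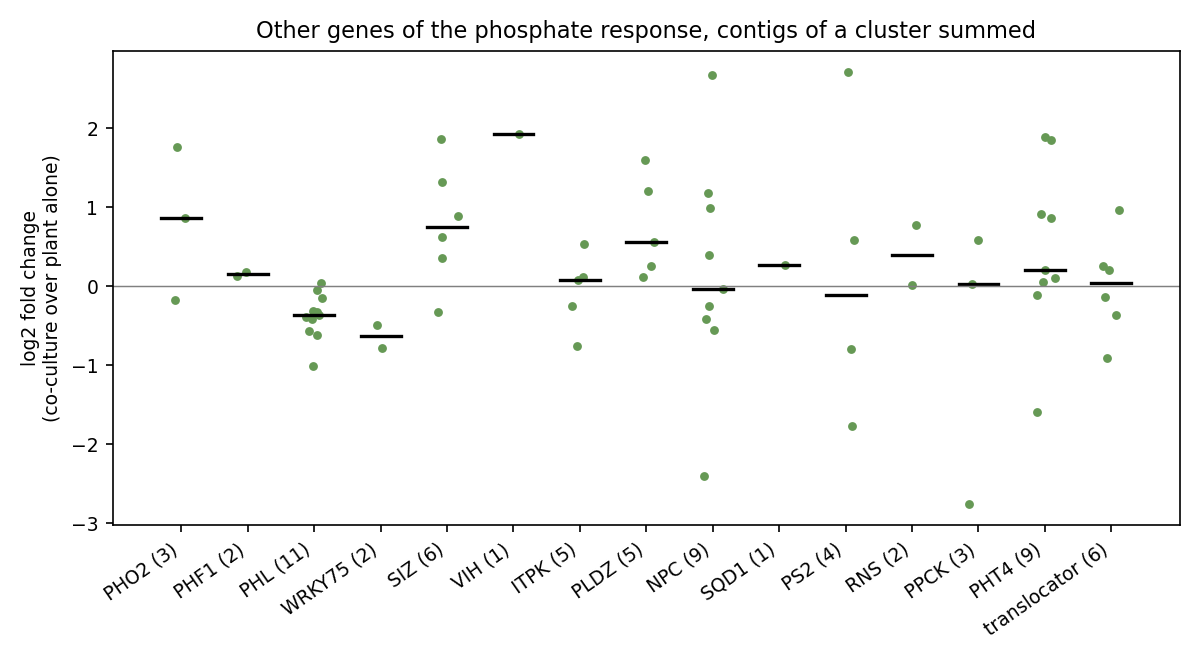
Log2 fold change of co-culture over plant alone (edgeR) for 69 clusters and single unigenes of other genes of the phosphate response, by gene family with the number in each, with a black line at the median. PHL points lie mostly below 0 and those of SIZ and phospholipase D zeta (PLDZ) mostly above it.

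The authors' deposited table, which pooled reads per group and included plant alone reads not analysed here, marked 29 phosphate unigenes Up (17.4% of those with a q-value) and 31 Down (18.6%), against 16.6% Up and 13.8% Down of all unigenes. In the authors' deposited table the log2 ratio of the PHT1 contigs CL9461.Contig1 and CL9461.Contig2 was -2.06 and 3.00, that of SPX1-like CL7085.Contig2 was -1.11, and those of Unigene14823 and Unigene14825 were -2.95 and -3.64. Its calls came at a q-value of at most 0.001 and a log2 ratio of at least 1 in size.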

How the data were processed

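Leaf RNA was read on a BGISEQ-500, per the labels' protocols. The submitters' processing notes list Bowtie2, RSEM and DESeq2 and give no versions. For each library the authors deposited RSEM expected counts and FPKM values of unigenes, per the file headers. They also deposited a comparison table with a log2 ratio, a p-value and a q-value. It is labelled with DEGseq, a method the notes do not list, so which tool made its q-values is not settled. How the transcripts were assembled is not given in the sources used here.

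Members and lists were chosen with earlier results of these data known. Unigenes absent from a library's file were set to 0, and counts were rounded. All unigenes were tested with edgeR 4.0.16 in R 4.3.3 (filterByExpr, TMM scaling, quasi-likelihood F tests, Benjamini-Hochberg adjustment at 0.05). SE is the size of the log2 fold change divided by the square root of F. Alternatives were DESeq2 1.42.0, median-ratio size factors, no filter, a replicate block, each library left out, limma 3.58.1 on log2(FPKM + 1), land plant hits only, and contigs summed per cluster, where 18 contigs without a member phrase joined the sums. The DESeq2 fits of cluster sums and of left-out libraries were chosen after seeing the data. The fits were tested on simulated data.

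Depth was 18881996 and 18616931 expected counts in plant alone and 22912284, 22975621 and 20968769 in co-culture. The floor of 3 counts over a group equals 0.0820 CPM for plant alone and 0.0448 CPM for co-culture. Named members were, in each role, the 2 with the highest mean FPKM, then the 5 in each direction with the smallest edgeR p at 1 CPM or more, and all that DESeq2 called, 29 in all. The authors' pooled plant alone column sums to 59625013 against 37498927 in the libraries analysed.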

Additional observations from a re-analysis of the deposited data

How the results depend on the processing

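The edgeR count of 0 calls, for all unigenes and for phosphate genes, held with median-ratio size factors, without the filter and with summed contigs. Limma on log2(FPKM + 1), the replicate block and the edgeR fits without each co-culture library also called 0. Replicate 1 had a library only in co-culture, so with the block co-culture 1 added nothing to the group difference. Leaving out a plant alone library left that group without replicates, so a lack of calls there says little. DESeq2 called 1294 unigenes and 3 phosphate genes, and on summed contigs 808 and 3. With a library left out DESeq2 called 3 to 10 phosphate genes, in fits that called 2160 to 3732 of all unigenes, and the 10 came in the fit without co-culture 2, with 2160. The members' median log2 fold change of -0.113 ranged from -0.152 with the replicate block to -0.0635 with limma, and from -0.145 to -0.0385 with a library left out. Deviations of same-numbered libraries correlated at 0.0371 and 0.0695. With 2 plant alone libraries the deviations mirror each other, so these values cannot show whether the numbers mark pairs. The block called 0.

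Of the 29 named genes, 11 turned direction somewhere, the largest starting values being 2.97 for CL9461.Contig2 and 0.58 for CL12442.Contig1. The cause was not tested. With the replicate block CL6242.Contig2 was 0.00589, CL3140.Contig2 0.0982 and CL8810.Contig3 0.114. CL8810.Contig3 was also 0.00536 with DESeq2, 0.00556 with median-ratio size factors and 0.0318 with limma. Contigs that took the value of their summed cluster turned with it, in edgeR and DESeq2 in turn: CL6242.Contig2 at 0.247 and 0.292, CL5539.Contig2 at 0.0579 and 0.0987, and CL9461.Contig2 at -1.48 and -1.45. With a library left out the values ran from -0.418 to 0.281 for CL6242.Contig2, from -0.729 to 0.0155 for CL11717.Contig1, from -0.427 to 0.315 for CL3140.Contig2 and from -0.350 to 0.407 for CL8810.Contig3. They ran from -0.481 to 0.345 for Unigene57682, from -0.951 to 0.0230 for Unigene60627, from -0.0765 to 1.20 for CL5539.Contig1, from -0.162 to 0.00167 for CL15740.Contig1 and from -0.212 to 1.05 for CL12442.Contig1. Depth limits the low genes, since 26 phosphate unigenes did not pass the filter, and 2 against 3 libraries set a wide error on every fold change.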
